A study of Mus musculus with 12 samples.

Results

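Hes1, Hes5, Hey1, Hey2, Heyl and Nrarp are genes that Notch signalling switches on, and Id1, Id2, Id3 and Id4 are genes that bone morphogenetic protein (BMP) signalling switches on. These 10 genes were chosen by name from the 48709 gene identifiers in the count tables, and all 10 passed the filter on low counts that left 16511 genes for testing. RNA of embryonic cortex from C57BL/6J mouse embryos at E15.5 was sequenced in 12 libraries, 4 each labelled Control, BAF155cKO and Pax6cKO, where cKO stands for conditional knockout. BAF155, encoded by Smarcc1, is a subunit of the BAF chromatin remodelling complex, and Pax6 is a transcription factor of cortical progenitors. The alleles, the Cre driver, the genotype of the controls and whether each library came from its own embryo are details that the sources used here do not give. The p-values therefore measure the spread between libraries, which may be technical.

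When a ligand binds a Notch receptor, the receptor's intracellular part enters the nucleus and joins the DNA-binding protein RBPJ to activate Hes and Hey genes. Hes and Hey proteins are basic helix-loop-helix (bHLH) repressors, and Hes proteins recruit Groucho corepressors. These repressors hold down proneural bHLH activators such as Neurog2, which keeps radial glia, the stem cells of the embryonic cortex, from becoming neurons. Nrarp is a small protein that is switched on by Notch and limits Notch signalling in turn. BMP ligands act through Smad proteins on Id genes. Id proteins have no DNA-binding domain and capture the E proteins that proneural factors need as partners.

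Smarcc1 stood at 303 ± 68.7 CPM (counts per M reads; SD, n = 4) in controls, 127 ± 10.8 in BAF155cKO and 186 ± 6.71 in the libraries labelled Pax6cKO. Pax6 counts went against the label, with 110.2 ± 19.1 CPM in controls, 314.1 ± 40.3 in BAF155cKO and 389 ± 8.74 in the libraries labelled Pax6cKO, and a count over the whole gene says nothing about a deleted exon. Libraries held between 15.2 and 32.0 M counted reads. Xist and 4 Y-linked genes showed female RNA in all 4 BAF155cKO libraries and in controls 3 and 4, and male RNA in controls 1 and 2 and in all 4 Pax6cKO-labelled libraries. The file names put all controls on sequencing lane 8, BAF155cKO 1 and 2 and the Pax6cKO-labelled libraries on lane 1, and BAF155cKO 3 and 4 on lane 3. Lane and genotype cannot be told apart in any comparison with control. The 6 cortex markers, Emx1 and Tbr1 among them, were present in every library, with a summed level of 2021 to 2691 CPM in controls, 1159 to 1725 in BAF155cKO and 1303 to 1437 in Pax6cKO-labelled libraries.

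In GENCODE M21 on mm10, Hes1 spans chr16:30064384-30067796 (plus strand), Hes5 chr4:154960923-154962371 (plus), Hey1 chr3:8663359-8667256 (minus), Hey2 chr10:30832359-30842801 (minus) and Heyl chr4:123233556-123249875 (plus). Nrarp spans chr2:25180758-25183339 (plus), Id1 chr2:152736251-152737410 (plus), Id2 chr12:25093799-25097140 (minus), Id3 chr4:136143497-136145755 (plus) and Id4 chr13:48261228-48266026 (plus). The sequences around the start sites of 6 of the 10 genes could be matched in RefSeq (GRCm38.p6). These windows run from 250 bases before the start to 50 after it, and 4 of them are shown, 2 that hold the letters RBPJ is known to bind and 2 that do not. Capitals mark TGGGAA, the core of the RBPJ site, or its reverse complement TTCCCA. The windows are chr4:154960673-154960972 (plus strand) for Hes5, chr10:30842734-30843033 (minus strand) for Hey2, chr2:25180508-25180807 (plus strand) for Nrarp and chr12:25096043-25096342 (minus strand) for Id2, each written 5′ to 3′ along its gene. The start is that of RefSeq, which for Hey2 and Id2 lies inside the GENCODE span.
Hes5: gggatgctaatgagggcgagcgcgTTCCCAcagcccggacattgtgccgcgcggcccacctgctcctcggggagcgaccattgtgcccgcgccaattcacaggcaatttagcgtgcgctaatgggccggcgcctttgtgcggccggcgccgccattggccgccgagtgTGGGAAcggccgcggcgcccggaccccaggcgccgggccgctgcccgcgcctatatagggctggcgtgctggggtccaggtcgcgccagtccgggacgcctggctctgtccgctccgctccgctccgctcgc
Hey2: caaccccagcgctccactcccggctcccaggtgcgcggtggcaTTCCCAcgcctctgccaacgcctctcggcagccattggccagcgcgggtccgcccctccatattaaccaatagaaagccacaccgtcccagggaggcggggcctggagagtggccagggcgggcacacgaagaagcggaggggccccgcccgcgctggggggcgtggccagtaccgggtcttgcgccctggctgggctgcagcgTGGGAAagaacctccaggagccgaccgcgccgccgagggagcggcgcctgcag
Nrarp: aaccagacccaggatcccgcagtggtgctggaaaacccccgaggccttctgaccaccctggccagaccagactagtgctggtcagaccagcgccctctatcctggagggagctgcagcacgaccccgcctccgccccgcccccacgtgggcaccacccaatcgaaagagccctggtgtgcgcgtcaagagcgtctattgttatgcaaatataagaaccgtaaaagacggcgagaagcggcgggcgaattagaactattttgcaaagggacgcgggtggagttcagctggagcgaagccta
Id2: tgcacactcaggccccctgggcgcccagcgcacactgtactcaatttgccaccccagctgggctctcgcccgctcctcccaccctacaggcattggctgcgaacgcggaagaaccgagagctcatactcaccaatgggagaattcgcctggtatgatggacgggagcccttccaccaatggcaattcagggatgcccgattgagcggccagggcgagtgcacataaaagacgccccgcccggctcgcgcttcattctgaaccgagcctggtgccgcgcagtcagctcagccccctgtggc
Searched on both strands, the longer form GTGGGAA, which contains the core, occurred at 2 places in the Hes5 window and at 2 places in the Hey2 window, 1 on each strand. Their first bases lay 226 and 83 bases before the start in Hes5, and 207 and 4 bases before it in Hey2. Of the 32851 windows of this length, 0.256% held GTGGGAA at 2 or more places and 6.38% at 1 or more. The Id4 window held the core alone, 245 bases before the start, and 25.6% of all windows hold it at least 1 time. The core was not among the letters of the Nrarp, Id2 and Id3 windows. The N-box CACNAG, which Hes proteins are known to bind, occurred 179 and 79 bases before the start in Nrarp, 82 bases before it in Id4 and 17 bases after it in Id2, and in 42.5% of all windows. Hes1, Hey1, Heyl and Id1 are named here without their sequences. A match is a description of these letters and was not linked to any binding.

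Id2 was the most abundant of the 10 genes. Per kilobase of exon, its level in controls averaged 160.0 CPM, from 144 to 180.0 over the 4 libraries, higher than 99.2% of the tested genes. Id4 came next with 26.8 ± 6.77 CPM per kb, apart from Id2 above and from Hes5 below it in every library. Hes5, Id3, Hey1, Hes1 and Id1 followed between 10.6 and 7.36 CPM per kb, and the library ranges of neighbours in that order overlapped. Nrarp, Heyl and Hey2 were the lowest, at 1.66, 1.555 and 1.15 CPM per kb, and only Heyl and Hey2 among them had ranges that did not overlap. Id2 also led in BAF155cKO libraries (121.8 CPM per kb) and in Pax6cKO-labelled libraries (169.2 CPM per kb). Id3 and Id1 stood above Hes5 in both, whereas in controls Hes5 stood above Id3 and Id1, though the library ranges of Id1 and Hes5 overlapped in BAF155cKO and those of Hes5 overlapped with both Id3 and Id1 in controls.

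**Figure D1:**
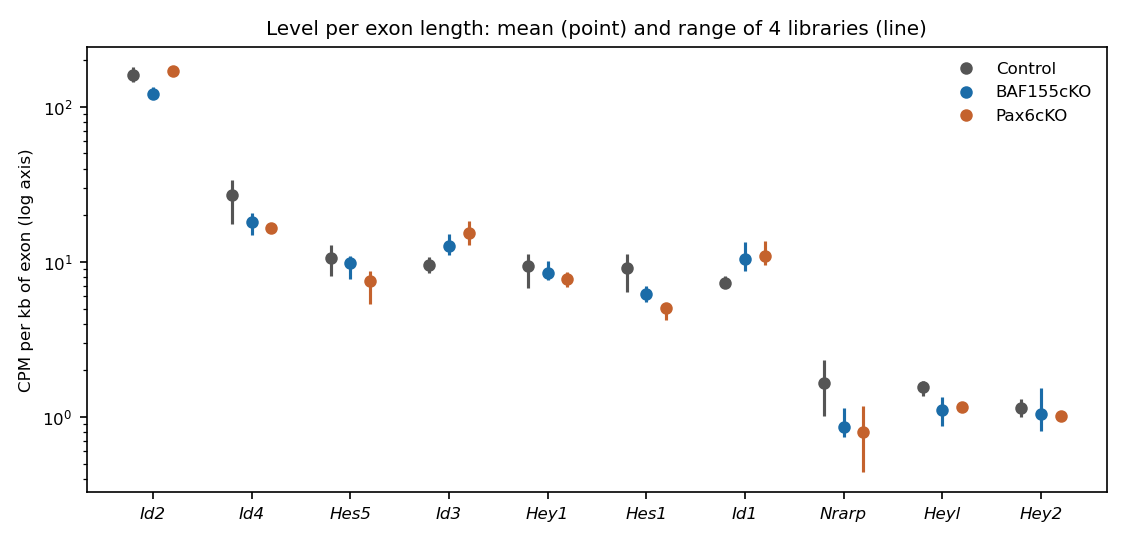
Level of each gene in CPM per kilobase of exon on a log axis, by group. Points are means of 4 libraries and lines run from the lowest to the highest library. Id2 stands above the other 9 genes in all groups, from 121.8 to 169.2 CPM per kb.

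Of the 10 genes, 2 rose (Id1 and Id3), 4 fell (Hes1, Heyl, Id2 and Id4) and 4 did not pass the test in BAF155cKO. Of all 16511 genes, 13.6% were called in this comparison, 6.04% as higher and 7.56% as lower. In Pax6cKO-labelled libraries 2 rose (Id1 and Id3), 5 fell (Hes1, Hes5, Heyl, Nrarp and Id4) and 3 did not pass, against 35.5% of all genes, 16.6% higher and 18.9% lower. In the direct comparison of the knockout groups 1 of 10, Id2, was called lower in BAF155cKO and 9 did not pass, against 4.31% of all genes, 2.3% higher and 2.01% lower. The median log2 fold change of the 10 genes was −0.269 in BAF155cKO and −0.355 in Pax6cKO-labelled libraries, beside 0.00787 and 0.0234 over all tested genes. Both comparisons use the same 4 controls, so the like direction of Hes1, Heyl, Id1, Id3 and Id4 in them is no independent repeat. The BAF155cKO count of 6 became 1 without BAF155cKO 4 (5.97% of all genes called) or without control 3 (6.92%). The count was 2 without BAF155cKO 1 (7.98%) or control 4 (7.65%), and 3 without control 2 (11.7%). By limma-voom it was 4 (12% of all genes called) and by DESeq2 7 (17.6%). The count of 7 in Pax6cKO-labelled libraries became 4 without control 3 (22.7% of all genes called).

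The libraries of BAF155cKO and control did not overlap for 4 of the 10 genes, 2 above and 2 below, which was so for 14.4% of all genes (6.47% above, 7.95% below). For Pax6cKO-labelled libraries 5 of the 10 did not overlap with control, 2 above and 3 below, against 35.6% of all genes (17.2% above, 18.3% below). Between the knockout groups 2 did not overlap, Hes1 above and Id2 below, against 15.3% of all genes (7.5% above, 7.83% below).

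Hes1 fell in both comparisons with control. Hes1 is the Notch-driven repressor whose loss in mouse is known to let progenitors become neurons early. Its level in controls 1 to 4 was 13.06, 16.39, 22.00 and 22.98 CPM. It was 13.32, 14.17, 11.61 and 11.17 CPM in BAF155cKO libraries. It was 11.13, 10.68, 10.70 and 8.602 CPM in Pax6cKO-labelled libraries. All Pax6cKO-labelled libraries lay below all controls, while BAF155cKO 1 and 2 lay above control 1. Hes1 had a log2 fold change of −0.85 for Pax6cKO-labelled libraries (SE 0.161, adjusted p = 0.00151) and of −0.56 for BAF155cKO (SE 0.161, adjusted p = 0.0337). Leaving out BAF155cKO 1, 3 or 4, or control 3 or 4, ended the Hes1 call in BAF155cKO, with adjusted p from 0.0608 to 0.111. So did limma-voom (adjusted p = 0.0646), fitting only the 2 groups (0.0797), the replicate number as a block (0.055) and BAF155cKO of lane 1 alone (0.249). The call in the Pax6cKO-labelled libraries was kept under all 17 other settings tried.

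Hes5, another Notch-driven repressor of radial glia, fell in the libraries labelled Pax6cKO and did not pass the test in BAF155cKO. Controls 1 to 4 held 12.36, 11.03, 17.07 and 17.48 CPM. BAF155cKO libraries held 14.52, 14.85, 10.59 and 13.66 CPM, within the range of controls except BAF155cKO 3, which lay below it. Pax6cKO-labelled libraries held 11.87, 11.29, 10.48 and 7.292 CPM, of which the upper pair overlapped controls 1 and 2. Hes5 fell by 0.50 on the log2 scale in Pax6cKO-labelled libraries (SE 0.175, adjusted p = 0.0382). That Hes5 call was lost without control 3 or 4 or Pax6cKO 3 or 4 (adjusted p from 0.0727 to 0.127). In BAF155cKO it was −0.10 (95% interval −0.476 to 0.267, adjusted p = 0.695).

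Of the Hey genes, which encode relatives of Hes proteins and are best known from heart and vessel development, Heyl alone passed the test. Heyl in controls was 7.536, 6.962, 8.655 and 8.647 CPM. It was 5.514, 6.889, 5.708 and 4.469 CPM in BAF155cKO and 6.181, 5.850, 5.669 and 5.851 CPM in Pax6cKO-labelled libraries. Every library of both knockout groups lay below every control, BAF155cKO 2 by the smallest margin. Heyl fell by 0.48 on the log2 scale in BAF155cKO (SE 0.136, adjusted p = 0.0303) and by 0.43 in the Pax6cKO-labelled libraries (SE 0.134, adjusted p = 0.0211). The first call was lost without BAF155cKO 1, 3 or 4 or control 3 or 4 (adjusted p from 0.0521 to 0.104), the second without control 3 or 4 or Pax6cKO 3 (adjusted p from 0.0605 to 0.0662). Hey1 had means of 30.85 ± 6.84 CPM in controls, 27.8 ± 3.88 in BAF155cKO and 25.4 ± 2.43 in Pax6cKO-labelled libraries (SD, n = 4). Its log2 differences from control were −0.14 (95% interval −0.452 to 0.163) and −0.28 (95% interval −0.585 to 0.0272), with adjusted p of 0.498 and 0.142. Hey2, with 3.703 to 7.067 CPM over all 12 libraries, differed by −0.12 (95% interval −0.511 to 0.28, adjusted p = 0.681) and −0.19 (95% interval −0.578 to 0.204, adjusted p = 0.444). The groups overlapped for Hey1 and Hey2 in both comparisons.

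Nrarp, the feedback inhibitor of Notch, had the largest fold difference of the 10 genes and the lowest counts, 26 to 125 reads per library. Controls 1 to 4 held 2.611, 3.362, 6.044 and 5.159 CPM. BAF155cKO libraries held 1.903, 2.962, 2.156 and 1.915 CPM, and Pax6cKO-labelled libraries 2.155, 3.047, 1.890 and 1.135 CPM. Controls 3 and 4 lay above all other libraries, and the second library of each knockout group lay above control 1. Nrarp fell by 1.05 on the log2 scale in the Pax6cKO-labelled libraries (SE 0.290, adjusted p = 0.0121), and without control 3 the adjusted p was 0.0506. In BAF155cKO the log2 difference was −0.91 (SE 0.294, adjusted p = 0.0505), just above the threshold of 0.05. It came under that threshold with DESeq2 (adjusted p = 0.0213), without BAF155cKO 2 (0.0236) and without control 1 (0.0167).

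**Figure D2:**
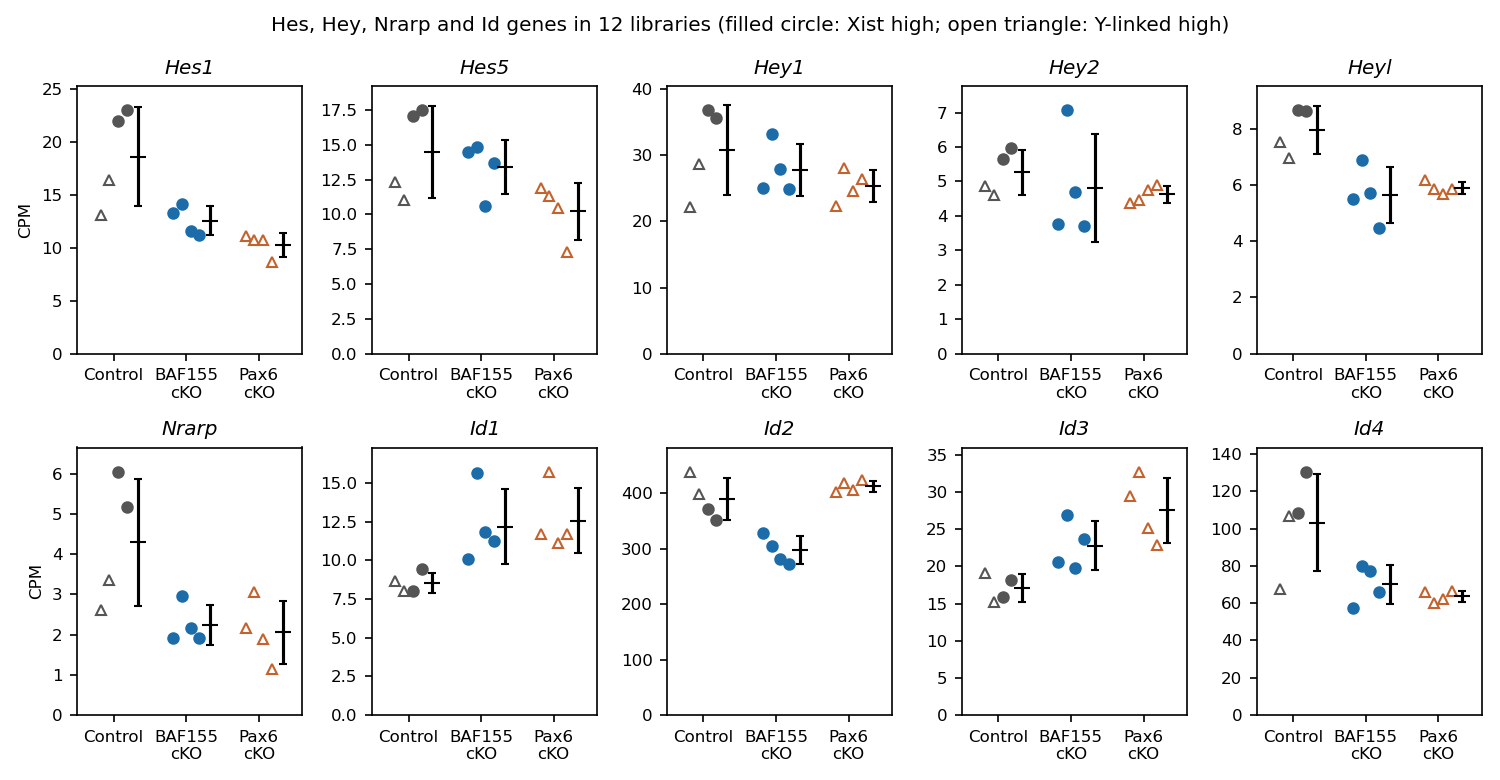
CPM of the 10 genes in each of the 12 libraries, 1 panel per gene with its own axis from 0, with the group mean and SD (n = 4) as black bars beside the points. Filled circles are libraries with high Xist and open triangles libraries with high Y-linked counts. Among the controls, Hes1, Hes5, Hey1, Nrarp and Id4 are higher in the filled circles.

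Id1 and Id3 rose in both knockout groups, opposite to Hes1 and Heyl. Both encode Id proteins that are abundant in vessels and in progenitors of the embryonic brain. Id1 was 8.693, 8.004, 8.026 and 9.411 CPM in controls. It was 10.06, 15.63, 11.80 and 11.24 CPM in BAF155cKO and 11.73, 15.72, 11.12 and 11.70 CPM in Pax6cKO-labelled libraries. Every knockout library lay above every control, with the second library of each group the highest. On the log2 scale Id1 rose by 0.52 in BAF155cKO (SE 0.148, adjusted p = 0.0326) and by 0.56 (SE 0.147, adjusted p = 0.00942) in Pax6cKO-labelled libraries. The BAF155cKO call was lost without BAF155cKO 2 or 4 or control 2 or 3 (adjusted p from 0.0575 to 0.0897). With the trend on GC content and length removed both calls were lost (adjusted p = 0.133 in BAF155cKO and 0.189 in Pax6cKO-labelled libraries).

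Id3 in controls was 19.14, 15.20, 15.86 and 18.11 CPM. It was 20.66, 26.98, 19.85 and 23.75 CPM in BAF155cKO and 29.42, 32.74, 25.24 and 22.92 CPM in Pax6cKO-labelled libraries. Again no control reached the lowest knockout library. Id3 rose by 0.69 on the log2 scale in the Pax6cKO-labelled libraries (SE 0.128, adjusted p = 0.00136), and this call was kept under all 17 other settings. It rose by 0.42 in BAF155cKO (SE 0.129, adjusted p = 0.0442), a call lost without BAF155cKO 1, 2 or 4 or control 2, 3 or 4 (adjusted p from 0.0538 to 0.12). That call was also lost with limma-voom (adjusted p = 0.0569), without a filter on low counts (0.0529), with only the 2 groups fitted (0.0683) and with the trend on GC content and length removed (0.113).

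Vessel cells are a known source of Id1 and Id3, and the 12 endothelial markers stand beside these results. Their summed level was 196.4 to 237.8 CPM in controls, 166.7 to 250.6 in BAF155cKO and 224.1 to 250.9 in Pax6cKO-labelled libraries. In BAF155cKO 0 of the 12 passed edgeR's test, DESeq2 or limma-voom, and 1 had an unadjusted p under 0.05 in edgeR. None of the 12 had a group mean of 0, and the lowest in controls, Emcn, averaged 5.17 CPM there. In Pax6cKO-labelled libraries Cldn5, Egfl7 and Esam rose and 9 did not pass. Of 10 pericyte markers, 1 fell in BAF155cKO, and 3 rose and 2 fell in the Pax6cKO-labelled libraries. Of all genes, 13.6% were called in BAF155cKO and 35.5% in Pax6cKO-labelled libraries. The 2 libraries highest in Id1 also had the highest endothelial sums of all 12, 250.6 CPM in BAF155cKO 2 and 250.9 CPM in Pax6cKO 2. In BAF155cKO 1 to 4 the sums were 166.7, 250.6, 243.3 and 197.5 CPM. Their Id1 was 10.06, 15.63, 11.80 and 11.24 CPM, which ranks the libraries as the sums do. Within the other groups and across all 12 libraries the rankings differed. BAF155cKO 1 had the lowest sum of the 12, and its Id1 lay above every control. Control 1, with a sum of 237.8 CPM, exceeded Pax6cKO 1, 3 and 4 (224.1 to 226.8 CPM) but lay below them in Id1. The 6 erythroid markers summed to 262.3 to 369.3 CPM in controls, 327.4 to 651.7 in BAF155cKO and 496 to 555 in Pax6cKO-labelled libraries, the latter above every control. Of the 6, Hbb-bt rose in BAF155cKO, and Hbb-bs and Hbb-bt rose in Pax6cKO-labelled libraries. The part of vessel and blood cells in the Id1 and Id3 differences was not tested. In bulk tissue, fewer cells of a type and less RNA per cell cannot be told apart, for these and for all results that follow.

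Id4 fell in both comparisons. Id4 is known to promote the expansion of neural progenitors in the mouse cortex. It was 67.72, 106.5, 108.1 and 130.4 CPM in controls. It was 57.12, 79.77, 77.25 and 66.14 CPM in BAF155cKO and 65.77, 60.13, 62.27 and 66.24 CPM in Pax6cKO-labelled libraries. All Pax6cKO-labelled libraries lay below all controls, while BAF155cKO 2 and 3 exceeded control 1. Id4 fell by 0.70 on the log2 scale in Pax6cKO-labelled libraries (SE 0.154, adjusted p = 0.00374) and by 0.56 in BAF155cKO (SE 0.154, adjusted p = 0.0286). The latter call was lost without BAF155cKO 1 or 4 or control 2, 3 or 4 (adjusted p from 0.0552 to 0.0938). The exons of Id4 overlap those of A330033J07Rik, whose own count came to 0.254 to 1.95 CPM, and the library kit does not mark strand.

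Id2 separated the knockout groups. Besides progenitors, postmitotic cortical neurons are known to express it. Controls 1 to 4 held 438.8, 398.0, 372.4 and 351.2 CPM. BAF155cKO libraries held 329.0, 305.3, 281.3 and 272.6 CPM, and Pax6cKO-labelled libraries 401.5, 418.5, 406.1 and 423.7 CPM. All 4 BAF155cKO libraries lay below all of the other 8, while the Pax6cKO-labelled libraries lay within the control range. Id2 fell by 0.39 on the log2 scale against control in BAF155cKO (SE 0.0890, adjusted p = 0.0105). Against control the Pax6cKO-labelled libraries differed by 0.08 (95% interval −0.108 to 0.269, adjusted p = 0.497). The direct comparison of BAF155cKO with Pax6cKO-labelled libraries gave −0.47 (SE 0.0891, adjusted p = 0.00767). Within lane 1, which leaves BAF155cKO 1 and 2 against the 4 Pax6cKO-labelled libraries, the difference was −0.37 (adjusted p = 0.0812). With sex as a term of the model it was −0.26 (SE 0.137, adjusted p = 0.783), and 0.0787% of all genes were called by edgeR in that model. Each knockout group is of 1 sex, so the sex term there rests on the 4 controls alone.

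**Figure D3:**
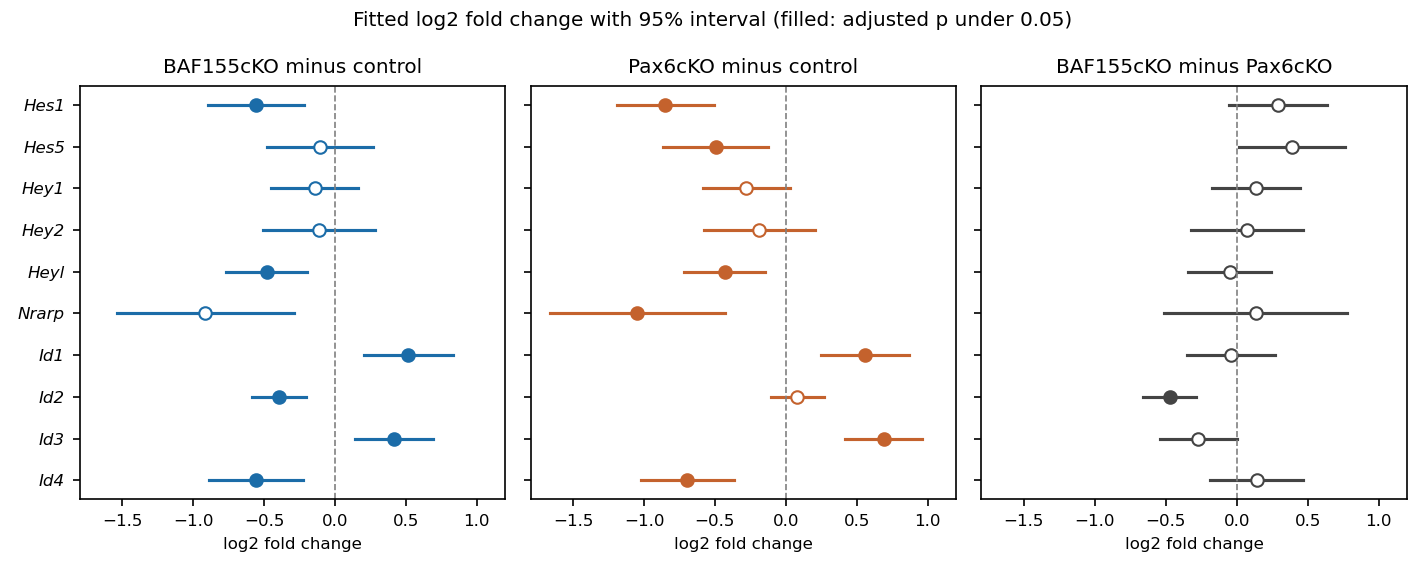
Fitted log2 fold change of each gene in the 3 comparisons, with 95% intervals as lines and filled points where the adjusted p was under 0.05. Hes1, Heyl and Id4 lie below 0 and Id1 and Id3 above 0 in both comparisons with control. Id2 is the filled point in the direct comparison, at −0.47.

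The other 9 genes did not pass the direct test between the knockout groups. Hes1 was higher in every BAF155cKO library than in every Pax6cKO-labelled one, with a log2 difference of 0.29 (95% interval −0.0513 to 0.639, adjusted p = 0.311). Hes5 differed by 0.39 (95% interval 0.018 to 0.766, adjusted p = 0.211) and Id3 by −0.27 (95% interval −0.542 to −0.00137, adjusted p = 0.231). The call of Hes5 in only the Pax6cKO-labelled libraries is therefore not shown to be a difference between the groups. The remaining 6 genes had adjusted p from 0.637 to 0.91, and Nrarp had the widest interval, −0.514 to 0.779.

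Within the controls, the Hes, Hey and Nrarp genes were higher in the female pair, controls 3 and 4, than in the male pair, controls 1 and 2. The mean of controls 3 and 4 was 1.88 times that of controls 1 and 2 for Nrarp, 1.53 times for Hes1, 1.48 times for Hes5, 1.43 times for Hey1 and 1.37 times for Id4. Hey2 and Heyl followed with 1.23 and 1.19 times, and the pairs did not overlap for any of these 7 genes. With 2 libraries in each pair, such separation arises easily by chance, and its share over all genes was not counted. Id2 went the other way, with 0.865 times, and the pairs overlapped for Id1 and Id3. Over tested genes with at least 10 reads in the 2 libraries compared, the mean chi-square per gene was 22.6 to 41.6 between the pairs. It was 12.9 between controls 1 and 2 and 5.71 between controls 3 and 4. The mitochondrial share of the counts was 1.21 and 1.38% in controls 3 and 4 and 2.27 and 2.18% in controls 1 and 2, and ran from 1.57 to 3.27% in BAF155cKO and from 2.04 to 2.91% in Pax6cKO-labelled libraries. The difference between the pairs, and the part of sex and of the mitochondrial share in it, was not tested.

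The comparisons were repeated with only the controls of the same sex as the knockout group. Against the 2 female controls, 6 of the 10 genes fell in BAF155cKO, 4 did not pass edgeR's test, and 8 had an unadjusted p under 0.05, with 27.5% of all genes called. Hes1 was −0.83 (adjusted p = 0.001), Hey1 −0.38 (0.0453), Heyl −0.60 (0.0118), Nrarp −1.31 (0.00477), Id2 −0.28 (0.0395) and Id4 −0.77 (0.00411). Id1 and Id3 kept their direction at 0.49 (adjusted p = 0.0618) and 0.43 (0.0595). Against the 2 male controls, 2 of the 10 genes were called in Pax6cKO-labelled libraries, with 10.7% of all genes called. Hes1 was −0.51 (adjusted p = 0.0298) and Id3 0.68 (0.0137). Hes5 was −0.19 (adjusted p = 0.512), Heyl −0.30 (0.217), Nrarp −0.53 (0.254), Id1 0.59 (0.0522) and Id4 −0.45 (0.0798), none of them called.

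**Figure D4:**
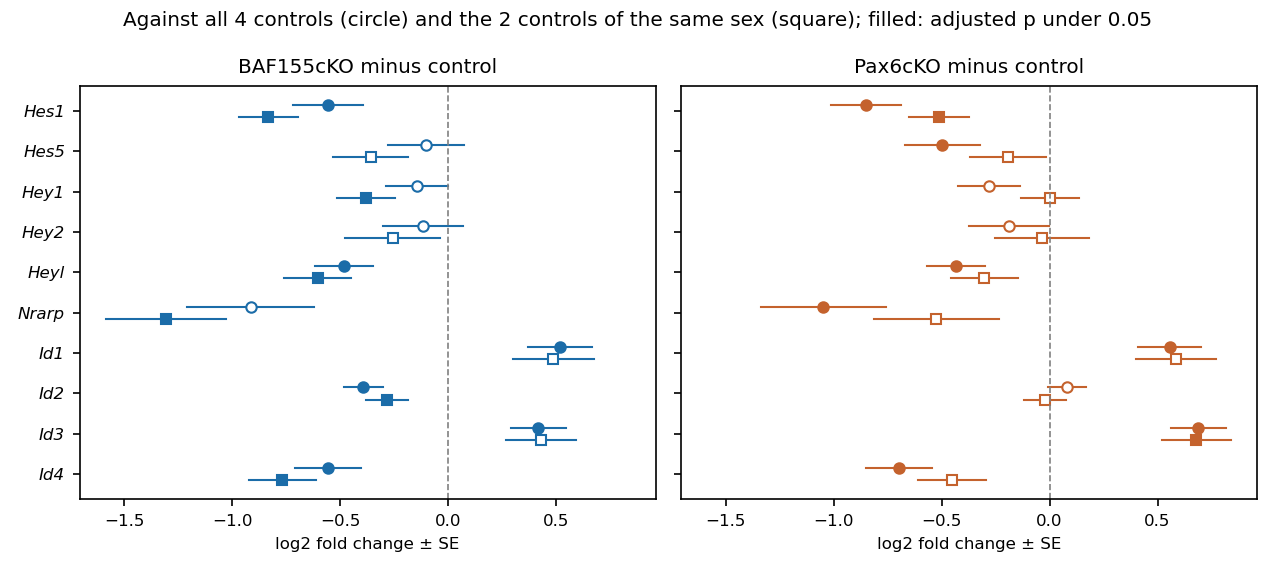
Log2 fold change with its SE against all 4 controls (circles) and against the 2 same-sex controls (squares), filled where the adjusted p was under 0.05. Nrarp moves from −0.91 to −1.31 in BAF155cKO and from −1.05 to −0.53 in Pax6cKO-labelled libraries. Id3 is at 0.69 and 0.68 in the latter.

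The 10 genes did not vary as a single block over the 12 libraries. The correlations that follow are Pearson's r of log2 CPM and describe libraries that share group, sex and lane. Hes1 varied most closely with Nrarp (r = 0.912), and with the group means removed r was 0.831. Id1 and Id3 gave r = 0.885, and 0.759 with the group means removed. Hes1 gave 0.864 with Id4 and 0.806 with Hes5. The lowest values were −0.689 for Id3 with Id4 and −0.668 for Hes1 with Id3, which became −0.127 and 0.159 with the group means removed. Of the 45 pairs, 14 had r above 0.7. Among tested genes outside the 10 and without a predicted-model name, the closest to Hes1 were Raver1 (r = 0.985), Cand2 (0.981) and Myh9 (0.98). Nrarp was closest to Mex3d (r = 0.984), Heyl to Zeb2 (0.98), Hey1 to Pnrc1 (0.964), Id4 to Pawr (0.953) and Hes5 to Ddr1 (0.947). Hey2 was closest to R3hcc1l (r = 0.932), Id3 to Spon2 (0.929) and Id1 to Prox1 (0.913). Id2 was closest to Npr3 (r = 0.959), a natriuretic peptide receptor with log2 fold changes of −1.47 in BAF155cKO (SE 0.171) and 0.36 in Pax6cKO-labelled libraries (SE 0.156).

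Radial glia are the main cells known to carry Hes1 and Hes5 in the cortex, and their markers also moved. Of 14 radial glia markers, 7 fell in BAF155cKO (median −0.553 over the 14), and 9 fell and 2 rose in Pax6cKO-labelled libraries (median −0.582). The shares of all genes called were 13.6% and 35.5%. Their summed level was 3809 to 4140 CPM in controls, 2900 to 3291 in BAF155cKO and 3086 to 3301 in Pax6cKO-labelled libraries. Slc1a3, a glutamate transporter, fell by 1.01 on the log2 scale in BAF155cKO (SE 0.0853, adjusted p = 1.49e-06), and Nes, an intermediate filament protein, fell by 0.87 in Pax6cKO-labelled libraries (SE 0.130, adjusted p = 0.000236). Both were picked among the markers that fell, after their values were seen, and the 2 that rose are not named here. Sox2, a transcription factor of neural stem cells, passed neither test, with log2 differences of 0.14 (adjusted p = 0.615) and 0.25 (0.311). The 8 ventral telencephalon markers summed to 527.2 to 758.2 CPM in controls, 1025 to 1189 in BAF155cKO and 1239 to 1354 in Pax6cKO-labelled libraries. The part of these cells in the Hes, Hey and Id differences was not tested. Of 5 tested choroid plexus markers, 1 was called in Pax6cKO-labelled libraries, Ttr, a carrier protein gene that liver also expresses, at 153.7 ± 132 CPM against 15.2 ± 7.36 in controls (SD, n = 4). The summed level of that list, from 26.21 to 330.6 CPM in Pax6cKO-labelled libraries and at most 36.16 in controls, is mostly Ttr in the former.

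Upstream of the Hes genes stand the Notch ligands, receptors and the proteases that process them. In BAF155cKO 1 of 7 ligand genes and 0 of 14 genes for receptors and processing passed edgeR's test, against 13.6% of all genes. The median log2 fold change of the 7 ligand genes was 0.0729 in BAF155cKO and 0.104 in Pax6cKO-labelled libraries, and that of the 14 genes for receptors and their processing −0.0198 and −0.183, beside 0.00787 and 0.0234 over all genes. Of 7 ligand genes, Dll3, a ligand-like protein that inhibits Notch within the cell, rose in both groups, by 0.85 in BAF155cKO (SE 0.134, adjusted p = 0.000717) and 0.51 in Pax6cKO-labelled libraries (SE 0.133, adjusted p = 0.00848). Dll1, the main activating ligand of newborn neurons, and Jag1 fell in Pax6cKO-labelled libraries, by 0.44 (adjusted p = 0.00673) and 0.27 (adjusted p = 0.0348). Against male controls the adjusted p of Dll1 was 0.122, and without single libraries that of Jag1 reached 0.0921. Of 14 genes for receptors and their processing, 0 passed edgeR's test in BAF155cKO, with 1 higher and 3 lower at an unadjusted p under 0.05 and 1 lower by DESeq2. Notch1 was at −0.18 (adjusted p = 0.33) and the protease gene Adam10 at −0.07 (0.643). Against female controls 4 of the 14 fell and 1 rose, and 2 of the 7 ligand genes rose, with 27.5% of all genes called. In Pax6cKO-labelled libraries 6 of the 14 fell and 1 rose, against 35.5% of all genes called. Notch3 fell by 0.98 (SE 0.123, adjusted p = 5.85e-05) and Notch2 by 0.88 (SE 0.116, adjusted p = 9.49e-05). Both were higher in BAF155cKO than in Pax6cKO-labelled libraries in the direct test, by 0.64 (adjusted p = 0.0092) and 0.59 (adjusted p = 0.00981). Poglut1, which adds glucose to Notch, rose by 0.30 (adjusted p = 0.0146), a call lost without control 3 or 4 (0.0541 to 0.0587).

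In the nucleus, 1 of the 10 genes of the RBPJ complex fell in BAF155cKO (median −0.277 over the 10) and 6 fell in Pax6cKO-labelled libraries (median −0.405). Of all genes, 13.6% were called in BAF155cKO and 35.5% in Pax6cKO-labelled libraries. The BAF155cKO count was 3 by DESeq2 (17.6% of all genes called) and 7 against female controls (27.5%). The Pax6cKO count was 4 against male controls (10.7%). Rbpj itself fell by 0.45 in BAF155cKO (SE 0.121, adjusted p = 0.0246), a call lost without BAF155cKO 1 or 4 or control 3 or 4 (0.0626 to 0.0865). Spen, a corepressor of RBPJ, fell by 0.63 (SE 0.119, adjusted p = 0.00156) and the acetyltransferase gene Ep300 by 0.56 (SE 0.105, adjusted p = 0.00153) in Pax6cKO-labelled libraries. Among 12 modifiers of the pathway, 2 fell in BAF155cKO (median −0.113) and 3 in Pax6cKO-labelled libraries (median −0.146). Dtx1, encoding a Deltex ubiquitin ligase, was called in both, at −0.64 (adjusted p = 0.0021) and −0.69 (adjusted p = 0.000653). Dtx4 fell by 0.45 in BAF155cKO (adjusted p = 0.014, and 0.0529 without BAF155cKO 4). Numbl, a relative of the Notch inhibitor Numb, fell by 0.37 in Pax6cKO-labelled libraries (adjusted p = 0.00944, and 0.138 with the trend on GC content and length removed).

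Of 8 corepressor genes, 6 of the Groucho family that Hes proteins recruit and the histone deacetylase genes Hdac2 and Sirt1, 1 rose and 2 fell in BAF155cKO (median −0.0646), and 2 rose and 2 fell in Pax6cKO-labelled libraries (median 0.00342). The shares of all genes called were 13.6% and 35.5%. Tle4 and Tle3 fell in both, by 0.58 and 0.50 in BAF155cKO (adjusted p = 0.00053 and 0.00847) and by 0.48 and 0.60 in Pax6cKO-labelled libraries (adjusted p = 0.00127 and 0.00125). Tle1 rose by 0.35 in BAF155cKO (adjusted p = 0.0214, and 0.0612 without control 2). Tle6 and Tle2 rose by 0.98 and 0.83 in Pax6cKO-labelled libraries (adjusted p = 0.00402 and 0.0208), and that of Tle2 was 0.0513 to 0.0665 without control 3 or 4 or Pax6cKO 1 or 3. Against controls of the same sex 0 of the 8 rose by edgeR's test in either group, with Tle6 in Pax6cKO-labelled libraries at an adjusted p of 0.0526 and Tle2 at 0.189, and 2 fell in each. Of all genes, 27.5% were called there in BAF155cKO and 10.7% in Pax6cKO-labelled libraries. Of 7 other Hes-type factors, 4 passed the filter on low counts, and Hes2, Hes3 and Hes7 did not. The medians of the 4 were 0.104 in BAF155cKO, with 1 higher, and 0.107 in Pax6cKO-labelled libraries, with 1 higher and 1 lower. Helt, a Hes-related repressor, rose by 1.06 in BAF155cKO (SE 0.191, adjusted p = 0.00217) and by 1.57 in Pax6cKO-labelled libraries (SE 0.185, adjusted p = 3.31e-05). Bhlhe40 fell by 0.79 in Pax6cKO-labelled libraries (SE 0.112, adjusted p = 0.000178).

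The list of bHLH activators and E proteins gave the most calls of the 10 pathway lists. It holds proneural and neuronal differentiation factors, Olig1 and Olig2, and the E protein genes Tcf3 and Tcf12. Of the 11 tested, 2 rose and 6 fell in BAF155cKO (median −0.616), and 3 rose and 8 fell in Pax6cKO-labelled libraries (median −0.618). The shares of all genes called were 13.6% and 35.5%. Neurod4 had log2 fold changes of −3.25 in BAF155cKO (SE 0.167, adjusted p = 6.36e-09) and −4.35 in Pax6cKO-labelled libraries (SE 0.179, adjusted p = 3.82e-10). Neurog2, the proneural factor of dorsal progenitors, stood at 132.2 ± 34.5 CPM in controls, 34.2 ± 10.2 in BAF155cKO and 16.01 ± 0.959 in Pax6cKO-labelled libraries (SD, n = 4). Its log2 fold changes were −1.94 (SE 0.196, adjusted p = 1.29e-05) and −3.04 (SE 0.205, adjusted p = 1.08e-07). Olig2, known from ventral progenitors, rose by 0.94 in BAF155cKO (adjusted p = 0.00174) and by 0.72 in Pax6cKO-labelled libraries (adjusted p = 0.00463).

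On the BMP side, 1 of 10 tested ligands and antagonists rose and 1 fell in BAF155cKO (median 0.212), and 1 rose and 3 fell in Pax6cKO-labelled libraries (median −0.252). The shares of all genes called, which also stand beside the receptors and Smads below, were 13.6% and 35.5%. Bmp7 fell in both, by 1.02 (SE 0.135, adjusted p = 0.000172) and 0.65 (SE 0.131, adjusted p = 0.00224). Bmp2 rose by 0.76 in BAF155cKO (SE 0.230, adjusted p = 0.0397), a call lost without BAF155cKO 2 or 4 or control 1, 3 or 4 (0.0557 to 0.123). Its mean was low, 1.87 CPM in BAF155cKO and 1.108 CPM in controls. Gdf5 rose by 1.24 (SE 0.18, adjusted p = 0.000197) and Bmp6 fell by 1.05 (SE 0.301, adjusted p = 0.0146, and 0.061 without control 3) in Pax6cKO-labelled libraries. Bmp6 averaged 0.7532 CPM there and 1.558 CPM in controls. Of 12 receptors and Smads, 3 fell in BAF155cKO, 5 fell in Pax6cKO-labelled libraries and 0 rose in either by edgeR's test or DESeq2, with 1 higher in BAF155cKO at an unadjusted p under 0.05. The medians of the 12 were −0.199 and −0.232. Bmpr1b, a BMP receptor, stood at 20.6 ± 1.32 CPM in controls, 7.65 ± 0.581 in BAF155cKO and 5.83 ± 0.432 in Pax6cKO-labelled libraries (SD, n = 4). Its log2 fold changes were −1.43 (SE 0.102, adjusted p = 2.83e-07) and −1.82 (SE 0.103, adjusted p = 1.59e-08). Smad1 fell by 0.39 in BAF155cKO (adjusted p = 0.0155, and 0.0531 to 0.0569 without BAF155cKO 4 or control 3), and Bmpr2 by 0.56 in Pax6cKO-labelled libraries (adjusted p = 0.000716).

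Of 6 tested genes known to be induced by BMP besides the Id genes, 1 rose and 0 fell in BAF155cKO by edgeR's test (13.6% of all genes called), with 1 lower by DESeq2 and at an unadjusted p under 0.05. In Pax6cKO-labelled libraries 1 rose and 2 fell (35.5% of all genes called). Their medians were −0.118 and 0.0279. The gene that rose was Dlx5, which is also a marker of the ventral telencephalon, by 0.87 (SE 0.168, adjusted p = 0.00371) and 1.36 (SE 0.168, adjusted p = 5.39e-05). Smad6, an inhibitory Smad that is also counted among the receptors and Smads, fell by 1.30 (SE 0.342, adjusted p = 0.0092) in Pax6cKO-labelled libraries. Its mean was low, 0.9468 CPM there and 2.338 CPM in controls. Smurf1, a ubiquitin ligase for Smads, fell by 0.35 (SE 0.0886, adjusted p = 0.00803) in the same libraries. Against male controls these 2 had adjusted p of 0.195 and 0.162.

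Against controls of the same sex the counts of 5 of these lists moved as follows, with 27.5% of all genes called in BAF155cKO and 10.7% in Pax6cKO-labelled libraries. Of the bHLH activators and E proteins, 2 rose and 8 fell in BAF155cKO, and 1 rose and 6 fell in Pax6cKO-labelled libraries. Of the BMP receptors and Smads, 5 fell in BAF155cKO and 2 in Pax6cKO-labelled libraries. Of the BMP ligands and antagonists, 1 rose and 2 fell in each group. Of the other genes induced by BMP, 1 rose and 2 fell in BAF155cKO, and 1 rose in Pax6cKO-labelled libraries. Of the Notch modifiers, 3 fell in BAF155cKO and 2 in Pax6cKO-labelled libraries.

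**Figure D5:**
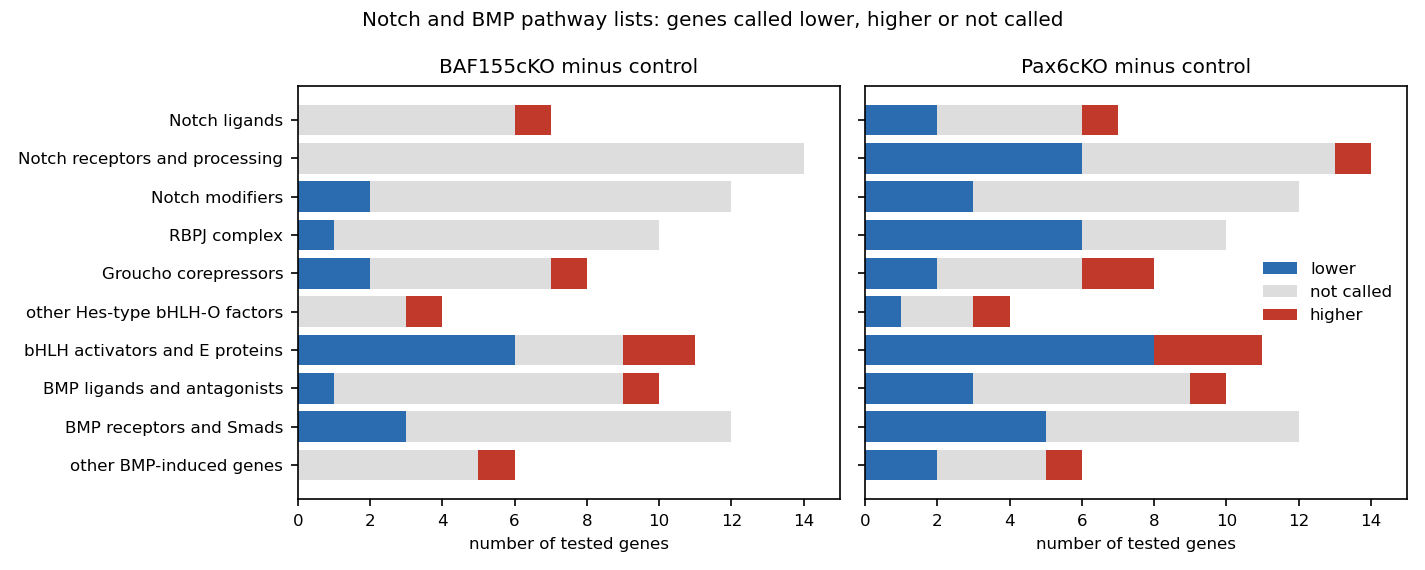
Number of tested genes called lower, not called and called higher in each of the 10 Notch and BMP pathway lists, for BAF155cKO and Pax6cKO-labelled libraries against control. Receptors and processing have 0 calls of 14 in BAF155cKO and 7 in Pax6cKO-labelled libraries, where 13.6% and 35.5% of all genes were called.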

How the data were processed

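RNA of mouse embryonic cortex was prepared with the RNeasy and TruSeq RNA v2 kits, per the labels' protocols. The values are raw read counts per gene, whole numbers in 1 table per library, as the authors deposited them. The submitters' processing notes name the build mm10. The aligner and counter: not given in the sources used here. Of 48709 identifiers, 48349 matched GENCODE M21, used for symbols and exon lengths, and 360 did not. Total counts ran from 15.2 to 32.0 M reads. Groups and replicate numbers came from the sample titles.

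Counts were tested in R 4.3.3 with edgeR 4.0.16 (filterByExpr, TMM, robust quasi-likelihood F-test) over all 12 libraries with 1 coefficient per group. Calls required an adjusted p under 0.05 (Benjamini-Hochberg, over 16511 genes). The SE is the log2 fold change over the square root of F, and intervals are 95%. CPM uses TMM-scaled library sizes. The code was tested on simulated data. Alternatives were RLE size factors, DESeq2 1.42.0, limma 3.58.1 (voom), 2 other filters, 2 groups only, a replicate block, same-sex controls, single lanes, GC and length trends and leaving out each library.

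The members and lists were chosen with earlier results of these data known. All 10 members are named; of each pathway list, the 2 called genes of smallest adjusted p in each direction are named, or, with no call, the 2 most abundant. The nearest genes are those of highest Pearson's r of log2 CPM, leaving out the 10 members and genes with predicted-model names. Slc1a3, Nes, Sox2, Notch2 and Notch3 in the direct test, Npr3, and the endothelial, erythroid and choroid plexus markers given by name were named after their values were seen. Replicates of a group were compared by chi-square, and no pair agreed within sampling noise.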

Additional observations from a re-analysis of the deposited data

Results flagged for a closer look

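Id1 in Pax6cKO replicate 2 stood apart from the other 3 libraries of that label, at 15.72 CPM against 11.73, 11.12 and 11.70 CPM. The gap to the nearest library was 0.867 of the range of the 4, above Dixon's 95% critical value for a group of 4. This was 1 of 30 groups examined, and chance alone marks about 1 in 20. The same library had the highest endothelial marker sum, 250.9 CPM, and the highest sums of choroid plexus and liver markers, 330.6 and 318.5 CPM (both lists hold Ttr), of the 12, and their part in its Id1 value was not tested. Without it, Id1 stayed called in the comparison with control.

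The difference of Id2 between the knockout groups was −0.47 on the log2 scale (adjusted p = 0.00767 by edgeR's quasi-likelihood test), with the 4 BAF155cKO libraries below the 4 labelled Pax6cKO. The groups also differ in sex throughout and in part in lane. With sex as a term of the model, which only the controls can set, the value was −0.26 (adjusted p = 0.783).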

How the results depend on the processing

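Of 540 values of the 10 genes under other settings, 450 kept direction and side of the threshold, 64 lost the call, 6 gained it and 20 changed sign. Of 837 values of named pathway genes, 775 were kept, 60 lost the call, 1 gained it and 1 changed sign. Genes called came to 1339 by DESeq2 in the direct comparison (main count 711). With only the 2 groups fitted, 1035 genes were called in BAF155cKO (6.52% of those tested, main count 2246). Of the 10 genes, 1 was called in that fit. With same-sex controls, 4534 genes were called in BAF155cKO, 1772 in Pax6cKO-labelled libraries (main count 5866, now 2 of the 10) and 13 in the direct comparison with sex as a term, with 0 of the 10 by edgeR and 0 at an unadjusted p under 0.05. BAF155cKO of lane 1 alone gave 682 genes (3.98%) against control and 470 (2.74%) in the direct comparison. Both had 0 of the 10 by edgeR (5 and 3 at an unadjusted p under 0.05). Lane 3 alone gave 2097 genes against control (12.4%) and 3 of the 10, Hes1, Heyl and Id2. Leaving out 1 library gave 1001 to 4073 genes (5.97 to 24.5%) and 1 to 7 of the 10 in BAF155cKO. For Pax6cKO-labelled libraries it gave 3825 to 6601 genes (22.7 to 39.7%) and 4 to 8 of the 10. In the direct comparison it gave 307 to 786 genes (1.83 to 4.69%) and 1 of the 10 each time.

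Sign changes came in log2 differences that had not passed the test. With same-sex controls they were Hey1 0.000789 and Id2 −0.0207 in Pax6cKO-labelled libraries, and in the direct comparison Hes1 −0.32, Hes5 −0.17, Hey1 −0.38, Hey2 −0.22, Nrarp −0.78 and Id4 −0.32. In lane 1 alone they were Hes5 0.0374 and Hey2 0.0593 in BAF155cKO, and Heyl 0.0875 and Id1 0.0455 in the direct comparison. With GC and length trends removed, Id2 was −0.10 in Pax6cKO-labelled libraries and Id1 0.0884 in the direct comparison. Without single libraries the direct comparison ran from −0.19 to 0.0852 for Id1 (above 0 without BAF155cKO 1 or Pax6cKO 2), from −0.19 to 0.18 for Hey2 (below 0 without BAF155cKO 2), from −0.17 to 0.0409 for Heyl (above 0 without BAF155cKO 4) and from −0.0568 to 0.37 for Nrarp (below 0 without BAF155cKO 2 or Pax6cKO 4). Adam10 ran from −0.12 to 0.0108 in BAF155cKO (above 0 without BAF155cKO 1). The cause of these changes was not tested.

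With the replicate number as a block, 2245 genes (13.6%) and 5 of the 10 were called in BAF155cKO. In Pax6cKO-labelled libraries 5689 genes (34.5%) and 6 of the 10 were called, and in the direct comparison 497 (3.01%) and 1. Hes1 lost its call in BAF155cKO and Hes5 in Pax6cKO-labelled libraries. Deviations of same-numbered libraries from their group means correlated from −0.228 to 0.377 over 12 pairs, beside −0.375 to 0.337 over 36 other pairs, so the numbers were not taken to pair the samples. Nrarp had the lowest counts of the 10 genes, 26 to 125 reads per library.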
